A study of Mus musculus with 9 samples.

Results

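The mRNAs described here encode the enzymes that shorten poly(A) tails in the cytoplasm of the mouse oocyte and the adaptors that bring these enzymes to their targets. They are 10 listed genes: the oocyte adaptor Btg4, the CCR4-NOT scaffold Cnot1, the CCR4-type nucleases Cnot6 and Cnot6l, the CAF1-type nucleases Cnot7 and Cnot8, the adaptors Tob1 and Tob2, and the nuclease Pan2 with its partner Pan3. The genes were chosen by name, with earlier results of these data known. Every probe set annotated to 1 of them alone was taken, which gave 26 of the 45037 probe sets on the array that are not controls. These cover 9 of the 10 genes. Both probe sets of Cnot1 are annotated to the pseudogene Gm6158 as well, so neither was read as Cnot1. Polysome-bound mRNA, the mRNA loaded with ribosomes, was hybridised to 9 Affymetrix whole-genome arrays for the mouse, 3 at each stage of meiotic maturation. All mice had received PMSG, a gonadotropin that drives follicle growth, and 48 h later hCG, which triggers maturation and ovulation. Oocytes at the germinal vesicle stage (GV, prophase arrest) were taken 0 h after hCG, at metaphase I (MI) 4 h after hCG and at metaphase II (MII, the arrest of the ovulated egg) 14 h after hCG. The MI samples carry the word pGVB as their description, without an explanation, while their other labels name MI. The labels give neither strain, genotype and age of the mice nor the number of oocytes in a sample. They call the samples biological replicates from independent sets, but do not say whether the sets were different animals, and the p-values rest on the spread among these samples, part of which may be technical.

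A fully grown oocyte no longer transcribes, and from maturation until the embryo's own genome is active, protein synthesis is steered through the length of the poly(A) tails of stored mRNAs. Deadenylases remove these tails. In the CCR4-NOT complex, Cnot1 holds a CAF1-type nuclease (Cnot7 or Cnot8), to which a CCR4-type nuclease (Cnot6 or Cnot6l) binds. The separate PAN2-PAN3 complex trims long tails, with Pan3 bringing the nuclease Pan2 to the poly(A)-binding protein. The adaptors of the BTG/TOB family bind the CAF1-type nucleases. Btg4, a member made in oocytes, is known to be needed for the clearance of maternal mRNA in the mouse. Tob1 and Tob2 also bind the poly(A)-binding protein.

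The arrays were alike in their medians, but less so at higher values. Array medians lay between 12.39 and 13.22, and between 53.1% and 54.8% of probe sets per array lay below an intensity of 16, near background. The medians thus describe dim probe sets. The 95th percentiles lay between 1287 and 1442 on GV, 1163 and 1458 on MI and 1126 and 1221 on MII arrays. At this percentile all MII arrays lay below all GV arrays. With 3 arrays a stage, precision is limited throughout. The 9 oocyte markers (Zp1, Zp2, Zp3, Gdf9, Bmp15, Nlrp5, Oosp1, Dppa3 and Mos) had a summed intensity of 56909 to 61654 on GV, 50848 to 56157 on MI and 33543 to 41040 on MII arrays. They went both ways: Zp2 lay at 6717 to 8211 on GV and 868 to 2166 on MII arrays, but Oosp1 at 3332 to 4545 and 8072 to 9069, and Mos at 576 to 1226 and 1933 to 3032. The 11 measured granulosa and cumulus markers summed to 114 to 426 on GV, 412 to 867 on MI and 370 to 913 on MII arrays. Of these, the FSH receptor Fshr stayed at or below 13.95 on every array, while Nr5a2 lay at 29.7 to 120 on GV and 204 to 725 on MII arrays and carried most of the MII sums. The cumulus genes Tnfaip6, Ptx3 and Ptgs2 had their highest values, 77.4, 162 and 168, on MI arrays. Theca and stroma markers (6 measured) summed to 124 to 493, 107 to 161 and 132 to 183 at the 3 stages, and blood, immune and endothelial markers (7 measured) to 170 to 353, 119 to 615 and 618 to 886. Most of the last list's MII sums came from Pecam1 (569 to 785), which lay at 44.0, 79.9 and 442 on the MI arrays. The oocyte sum was thus lowest and the sum of the last list highest on the MII arrays, as were several of the genes below, and the part of either in their changes was not tested. A signal on polysomes reflects both how much of an mRNA the oocytes held and how much of it was loaded with ribosomes, which cannot be told apart here. Neither can fewer cells of a type and less RNA per cell. With medians alike between arrays, each value is also relative to the other mRNAs on its array. A change in the total mRNA on polysomes was not measured, so rises and falls are not absolute amounts.

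From GV to MII, mRNAs of the adaptor Btg4 and of 4 nucleases rose on polysomes. On the linear-model fit (limma, log2 of intensity + 16), Btg4 rose 2.69-fold, Cnot6l 2.28-fold at its brightest probe set, Cnot7 between 4.78-fold and 8.32-fold over its 3 probe sets, Cnot8 4.87-fold at 1 of its 2 probe sets and Pan2 5.28-fold. Over the same span 1 probe set each of Tob1 and Tob2 fell, by 4.94-fold and 6.06-fold, while other probe sets of these genes did not pass. No probe set of Cnot6 or Pan3 passed the test, which was a Benjamini-Hochberg adjusted p under 0.05 over all 45037 probe sets. The plot of each gene's brightest probe set shows all 9 arrays.

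**Figure D1:**
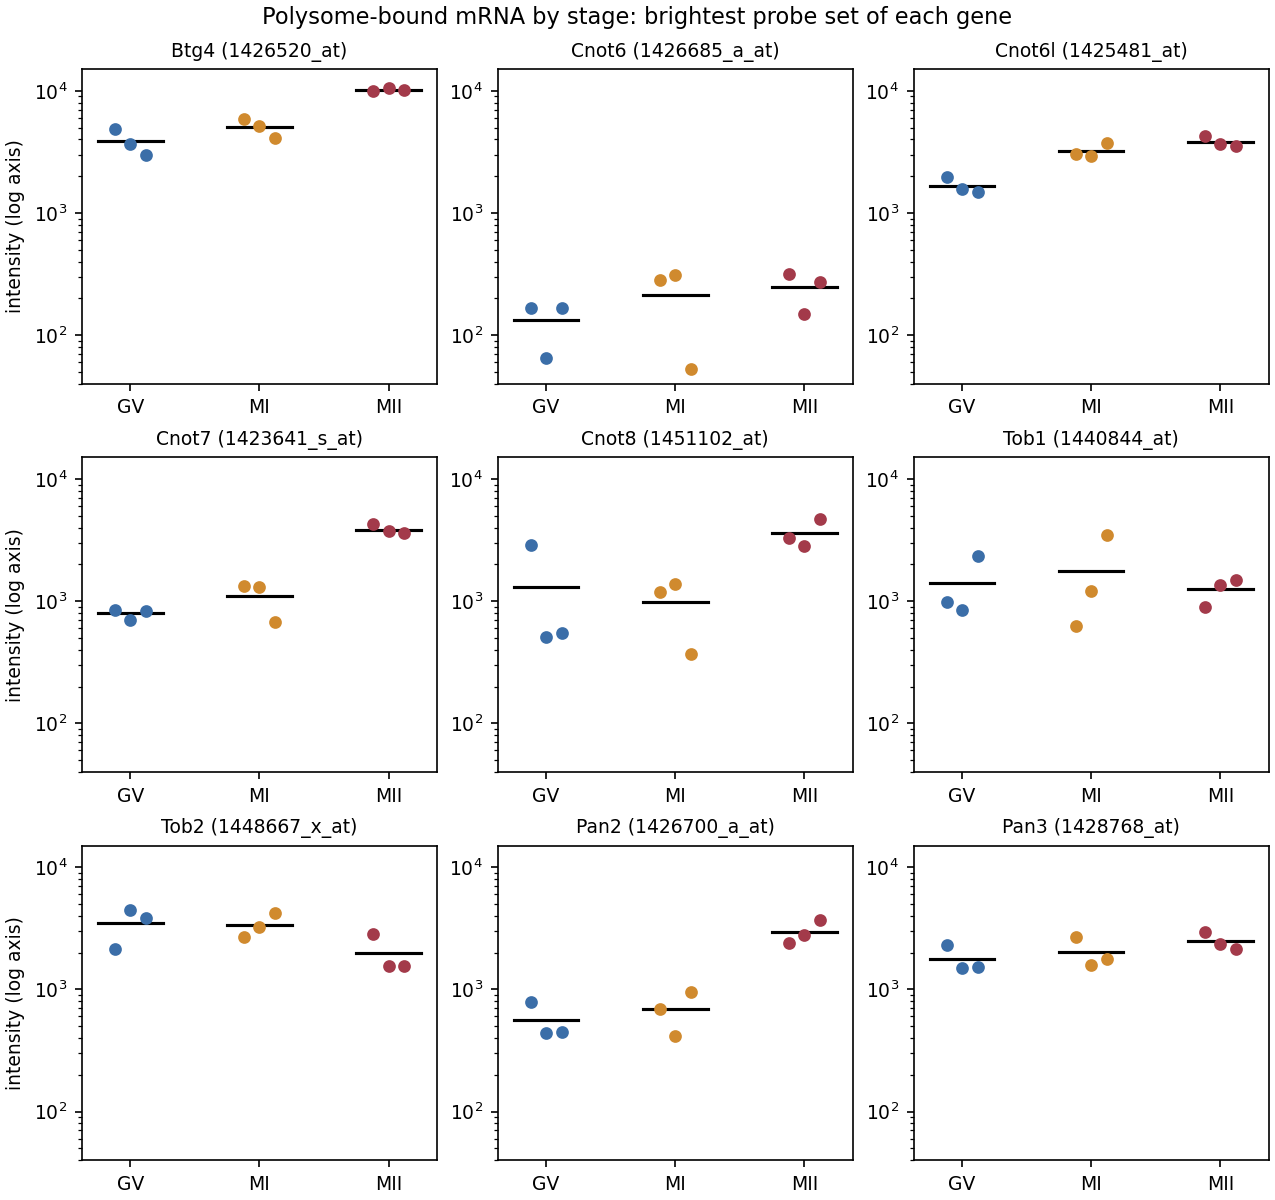
Intensity (log axis) on each of the 9 arrays for the brightest probe set of each of the 9 measured genes, with points for replicates 1 to 3 from left to right and a bar at the mean of each stage. For Btg4, Cnot7 and Pan2 the 3 MII arrays lie above all GV and MI arrays, for Cnot6l the MI and MII arrays lie above the GV arrays, and for Cnot8 array GV 1 (2892) lies far above GV 2 (504) and GV 3 (545). Heights compare arrays within a panel, not genes with each other.

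Btg4, the adaptor, has a single probe set (1426520_at). Its intensity was 4912, 3637 and 2993 on the GV arrays, 5915, 5181 and 4122 on the MI arrays and 9987, 10438 and 10060 on the MII arrays. The MII arrays lay above all others and close together, with a mean of 10162 ± 242 against 3847 ± 977 in GV and 5072 ± 901 at MI (SD over 3 arrays each), while GV and MI arrays overlapped. The log2 change was 1.43 from GV to MII (SE 0.22, 95% interval 0.91 to 1.94, adjusted p = 0.00759) and 1.02 from MI to MII (SE 0.22, interval 0.50 to 1.53, adjusted p = 0.0405). From GV to MI it was 0.41 (interval -0.10 to 0.92, adjusted p = 0.904). The call from GV to MII was kept in each of the 9 fits that left out 1 array and lost with pseudocount 1 (adjusted p = 0.086). The call from MI to MII was kept only without GV 1 or GV 3. It was lost without GV 2, MI 1, MI 2, MI 3, MII 1, MII 2 or MII 3 (log2 change 0.87 to 1.13 over the 9 fits, adjusted p at most 0.11), among the brighter probe sets alone (0.11), with MI and MII arrays alone (0.0501) and with pseudocount 1 (0.286).

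Cnot7, the CAF1-type nuclease that Btg4 and the Tob proteins bind, rose at all 3 of its probe sets from GV to MII. The brightest, 1423641_s_at, measured 850, 707 and 824 on the GV arrays, 1325, 1297 and 674 on the MI arrays and 4238, 3716 and 3610 on the MII arrays. Probe set 1460665_a_at measured 929, 355 and 442, then 1359, 934 and 1124, then 2999, 3292 and 2974. Probe set 1430519_a_at measured 476, 287 and 216, then 503, 1041 and 607, then 2111, 3228 and 2870. At each of them the lowest MII array lay above the highest MI and GV array. From GV to MII the log2 changes were 2.26 (SE 0.27, adjusted p = 0.00278), 2.51 (SE 0.34, adjusted p = 0.00442) and 3.06 (SE 0.36, adjusted p = 0.00283), and only 0.531% of all probe sets rose more than the last. These 3 calls were kept in every fit without 1 array and in every other setting that held the probe set.

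From MI to MII the same probe sets moved by 1.86 (adjusted p = 0.00873), 1.44 (adjusted p = 0.0525) and 1.96 (adjusted p = 0.0231). The call of 1423641_s_at was kept in all 9 fits without 1 array and lost with pseudocount 1 (adjusted p = 0.0581). That of 1430519_a_at was lost without MI 1, MI 3, MII 2 or MII 3 and with pseudocount 1 (adjusted p = 0.0697), and its adjusted p without 1 array ran from 0.0229 to 0.0781. Probe set 1460665_a_at, which missed the threshold, passed without GV 1 (adjusted p = 0.0126) or GV 2 (adjusted p = 0.0458), with quantile normalization (0.0237), with scaling to the same 95th percentile (0.0246) and with MI and MII arrays alone (0.0253). In the names of probe sets, _s_at marks probes that match several transcripts and _a_at probes that match several transcripts of 1 gene, by the array maker's convention.

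Cnot8, the paralogue that takes the place of Cnot7 in other copies of the complex, rose at 1 of its 2 probe sets. Probe set 1421135_a_at measured 601, 299 and 452 on the GV arrays, 691, 747 and 350 on the MI arrays and 1668, 2102 and 2931 on the MII arrays, which all lay above the others. Its log2 change was 2.28 from GV to MII (SE 0.38, adjusted p = 0.00968) and 1.91 from MI to MII (SE 0.38, adjusted p = 0.0285). The call from GV to MII was kept in every fit without 1 array and in every other setting that held the probe set. The call from MI to MII was lost without MI 1, MI 2, MI 3, MII 2 or MII 3 (0.0565 to 0.0942 as adjusted p), with pseudocount 1 (0.0781), with MI and MII arrays alone (0.0578) and with the replicate number as a block (0.0678).

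The brighter Cnot8 probe set, 1451102_at, measured 2892, 504 and 545 in GV, 1193, 1369 and 372 in MI and 3303, 2821 and 4659 in MII. Array GV 1 stood among the MII arrays, and the others did not overlap with them. Its log2 change from GV to MII was 1.90 (interval 0.18 to 3.62, adjusted p = 0.198), and without GV 1 it was 2.71 (adjusted p = 0.0361). The 2 probe sets differed in their change from GV to MII by 0.38 (exact permutation test on within-array differences, p = 0.8, adjusted p = 0.907 over 51 such tests).

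Cnot6l, a CCR4-type nuclease, rose at 2 of its 4 probe sets from GV to MII. Probe set 1425481_at measured 1967, 1560 and 1492 on the GV arrays, 3038, 2901 and 3741 on the MI arrays and 4293, 3669 and 3504 on the MII arrays. Probe set 1425480_at measured 1710, 1935 and 1853, then 2751, 3050 and 3103, then 3582, 2773 and 3078. At both, all MI and MII arrays lay above all GV arrays, while MI and MII arrays overlapped.

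From GV to MII these Cnot6l probe sets rose by 1.19 (SE 0.18, interval 0.77 to 1.61, adjusted p = 0.00716) and 0.77 (SE 0.15, interval 0.41 to 1.12, adjusted p = 0.0203). At 1451723_at, also of Cnot6l, the log2 change was 0.80 (adjusted p = 0.163), and the dim 1434311_at, between 9.7 and 277 over all arrays, had 1.88 (interval -0.16 to 3.91). Probe set 1451723_at passed only with quantile normalization (adjusted p = 0.0286) and with scaling to the same 95th percentile (0.0411). The dim 1434311_at passed only without GV 1 (log2 change 2.91, adjusted p = 0.0296). The call of 1425481_at was kept in all 9 fits without 1 array and lost with pseudocount 1 (adjusted p = 0.136). That of 1425480_at was lost without GV 1, GV 3, MII 1 or MII 3 (adjusted p up to 0.066), with the replicate number as a block (0.0529), with an intensity trend (0.0632), among the brighter probe sets alone (0.148) and with pseudocount 1 (0.355). Of the 4 Cnot6l probe sets, 3 have the same representative sequence in the annotation, so they are not independent measurements.

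For the first step, from GV to MI, the log2 changes of 1425481_at, 1425480_at and 1451723_at were 0.94 (interval 0.52 to 1.36), 0.69 (0.34 to 1.05) and 0.81 (0.14 to 1.49), with adjusted p of 0.296, 0.39 and 0.72. For the second step, from MI to MII, they were 0.25 (-0.17 to 0.67), 0.08 (-0.28 to 0.43) and -0.01 (-0.69 to 0.66). The difference between the steps did not pass for any of them (adjusted p = 0.594, 0.566 and 0.758), so a timing of the Cnot6l rise to the first step was not shown.

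Cnot6, the paralogue of Cnot6l, gave scattered values at all 4 probe sets, which share 1 representative sequence. The brightest, 1426685_a_at, measured 167, 64.9 and 168 in GV, 284, 309 and 52.6 in MI and 319, 150 and 270 in MII. Arrays of the 3 stages overlapped. The log2 change from GV to MII was 0.85, with an interval from -0.65 to 2.35 that holds both no change and a rise like that of Cnot6l (adjusted p = 0.591). The other probe sets had log2 changes of 1.27, 0.09 and 2.12, and the last, 1426684_at, was below 16 on 4 arrays; without MII 1 it reached 2.85 and passed (adjusted p = 0.0479).

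The scaffold Cnot1 could not be measured on its own. The brighter of the 2 probe sets that match both Cnot1 and Gm6158, 1434251_at, measured 1778, 2213 and 1643 on the GV arrays, 1957, 1497 and 1367 on the MI arrays and 251, 292 and 289 on the MII arrays. All MII arrays lay far below the others, and its log2 change was -2.45 from MI to MII (SE 0.19, adjusted p = 0.00116) and -2.68 from GV to MII (SE 0.19, adjusted p = 0.000685). The other, 1457546_at, lay between 5.6 and 175 over all arrays and had a log2 change of 0.01 from GV to MII. Which gene these signals come from was not tested, and they are left out of all counts below.

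In the PAN complex, the nuclease and its partner differed in what passed. Pan2 (1426700_a_at) measured 787, 441 and 444 on the GV arrays, 695, 417 and 958 on the MI arrays and 2388, 2768 and 3681 on the MII arrays. Every MII array lay above every other array, and the mean was 557 ± 199 in GV, 690 ± 271 in MI and 2946 ± 665 at MII (SD over 3 arrays each). The log2 change was 2.40 from GV to MII (SE 0.36, interval 1.57 to 3.23, adjusted p = 0.00662), kept in all fits without 1 array and in all other settings. From MI to MII it was 2.12 (SE 0.36, interval 1.29 to 2.96, adjusted p = 0.0164), lost without MII 3 (adjusted p = 0.0595) and with pseudocount 1 (adjusted p = 0.0505).

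Pan3, which brings Pan2 to the tail, measured 2308, 1507 and 1508 in GV, 2675, 1587 and 1755 in MI and 2921, 2363 and 2126 in MII at its brightest probe set, 1428768_at. The stages overlapped, and the log2 change from GV to MII was 0.49 (interval -0.13 to 1.11, adjusted p = 0.398). At 1447895_x_at, whose MII arrays (1682 to 2663) lay above its GV arrays (923 to 1567), it was 0.81 (interval -0.43 to 2.05, adjusted p = 0.509). The remaining Pan3 probe sets were near background: 1437883_s_at was below 16 on all 9 arrays and 1458465_at on 4. Within arrays, the difference between the brightest Pan2 and Pan3 probe sets moved by 1.80 between MI and MII and by 1.91 between GV and MII, without overlap between the stages. The exact two-sided permutation test gave p = 0.1 for each, the smallest that 3 arrays against 3 allow, and 0.6 after adjustment over 12 such tests.

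Tob1 and Tob2, the adaptors of the CAF1-type nucleases made in many tissues, gave different answers by probe set, as the plot of their probe sets shows. For Tob2, 1448666_s_at measured 921, 990 and 1253 on the GV arrays, 1536, 1403 and 1191 on the MI arrays and 307, 77.6 and 162 on the MII arrays. All MII arrays lay below all others. It fell by 2.98 on the log2 scale between MI and MII (SE 0.41, adjusted p = 0.00741), its log2 change was -2.60 between GV and MII (SE 0.41, adjusted p = 0.00804), and both calls were kept in every fit without 1 array and in every other setting. The brightest Tob2 probe set, 1448667_x_at, measured 2119, 4420 and 3869, then 2663, 3263 and 4242, then 2849, 1551 and 1542, with overlap between stages. Its log2 change from GV to MII was -0.80 (interval -1.64 to 0.04, adjusted p = 0.284). For the other 3 it was -0.10 (1417310_at, interval -0.96 to 0.76), -1.38 (1431776_at, interval -2.56 to -0.20) and -1.14 (1417309_at, interval -2.14 to -0.15), and none passed.

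All 5 Tob2 probe sets thus had a change below 0 from GV to MII, but 1 of them passed; without GV 1, 1417309_at passed as well (adjusted p = 0.0355). The mean over the 5 probe sets moved by -1.21 on the log2 scale and passed (adjusted p = 0.0124 over genes). Of the 5, 4 have the same representative sequence in the annotation. Within arrays, 1448666_s_at moved by -2.18 from MI to MII relative to 1448667_x_at, without overlap between the stages (exact two-sided permutation p = 0.1, the smallest possible; adjusted p = 0.823 over 51 such tests within genes). The mark _x_at stands for probes that may also match other sequences.

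For Tob1, the dimmer probe set 1423176_at measured 184, 165 and 186 on the GV arrays, 61.2, 78.8 and 26.5 on the MI arrays and 47.0, 9.8 and 21.4 on the MII arrays. All MI and MII arrays lay below all GV arrays. It fell by 2.30 on the log2 scale from GV to MII (SE 0.39, adjusted p = 0.0105). This call was kept in every fit without 1 array and in every other setting that held the probe set. Its log2 change from GV to MI was -1.52 (interval -2.42 to -0.62, adjusted p = 0.48). The brighter probe set 1440844_at measured 984, 847 and 2359 in GV, 621, 1201 and 3499 in MI and 897, 1368 and 1486 in MII. Its arrays differed within a stage by more than the stages did, and the log2 change from GV to MII was -0.04 (interval -1.53 to 1.45). The mean of both moved by -1.17 on the log2 scale and passed (adjusted p = 0.0296 over genes).

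**Figure D2:**
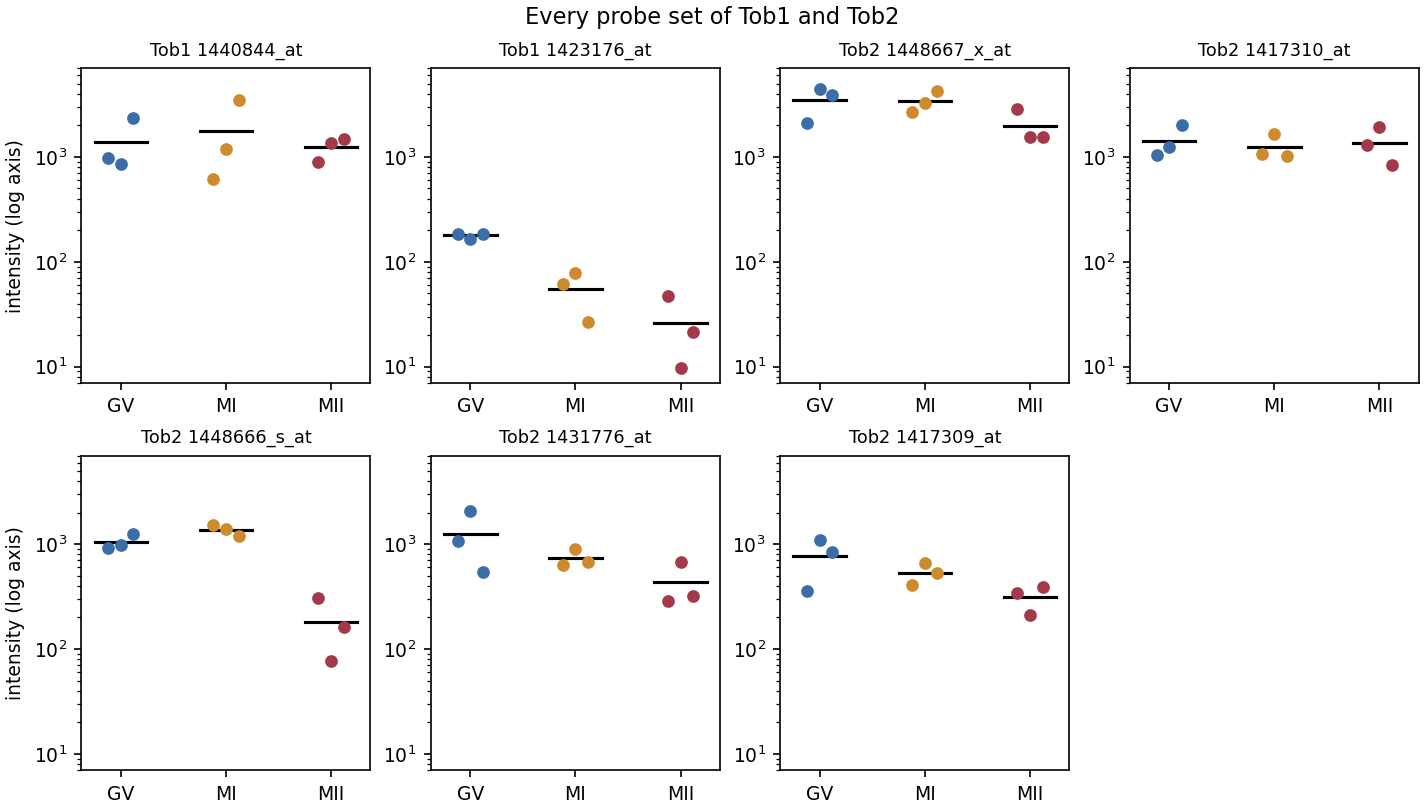
Intensity (log axis) on each of the 9 arrays for the 2 probe sets of Tob1 and the 5 of Tob2, with points for replicates 1 to 3 from left to right and a bar at the mean of each stage. Tob1 1423176_at and Tob2 1448666_s_at are low on all MII arrays (at most 47.0 and 307), while Tob1 1440844_at and Tob2 1417310_at overlap between all stages.

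The first step, from GV to MI, covers germinal vesicle breakdown and the making of the first spindle. None of the 26 probe sets passed limma's test at this step, and 0% of all probe sets passed it. At an unadjusted p under 0.05 there were 6 of the 26, against 6.19% of all probe sets: the 3 brighter Cnot6l probe sets, Cnot7 1460665_a_at and 1430519_a_at (log2 changes 1.07 and 1.10), and Tob1 1423176_at. In 5 probe sets, those of Cnot6l and Cnot7 just named, all MI arrays lay above all GV arrays, and in 1, that of Tob1, below, against 5.98% and 5.39% of all probe sets. The median log2 change of the 26 was 0.22, against 0.01 over all probe sets.

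The second step, from MI to MII, spans the first division and the arrest at metaphase II. Of the 26 probe sets, 5 rose (Btg4, 2 of Cnot7, 1 of Cnot8 and Pan2), 1 fell (Tob2) and 20 did not pass. Over all probe sets 1.57% rose and 3.85% fell, and among those at or above the median signal, as nearly all the 26 were, 2.99% rose and 7.67% fell. All MII arrays lay above all MI arrays in 8 of the 26 and below in 2, against 10.5% and 11.6% of all probe sets. The median log2 change was 0.52, against 0.00 over all probe sets. The number called was 3 without MI 1, MI 3 or MII 2, 2 without MII 3 and 1 with pseudocount 1.

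Over the whole span, from GV to MII, 8 of the 26 probe sets rose (Btg4, 2 of Cnot6l, all 3 of Cnot7, 1 of Cnot8 and Pan2), 2 fell (1 each of Tob1 and Tob2) and 16 did not pass. Over all probe sets 3.75% rose and 5.23% fell, and among those at or above the median signal 7.23% rose and 10.4% fell. All MII arrays lay above all GV arrays in 11 of the 26 and below in 2, against 12.7% and 13.1% of all probe sets. The median log2 change was 0.81, against 0.01 over all probe sets. Both comparisons share the MII arrays, so their calls are not independent. As the genes were chosen with earlier results of these data known, the counts beside the shares of all probe sets are a description only. The share of rises among all probe sets called was 41.8% here and 28.9% from MI to MII. With quantile normalization it was 51.1% and 43.8%, and with scaling to the same 95th percentile 52.5% and 43.5%. With either scaling, 9 of the 26 rose and 2 fell from GV to MII, and none of the calls changed sign in any setting. The F test over the 3 stages called 10 of the 26, against 7.03% of all probe sets, and 6 without GV 2 or MII 2 and 5 without MII 3.

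**Figure D3:**
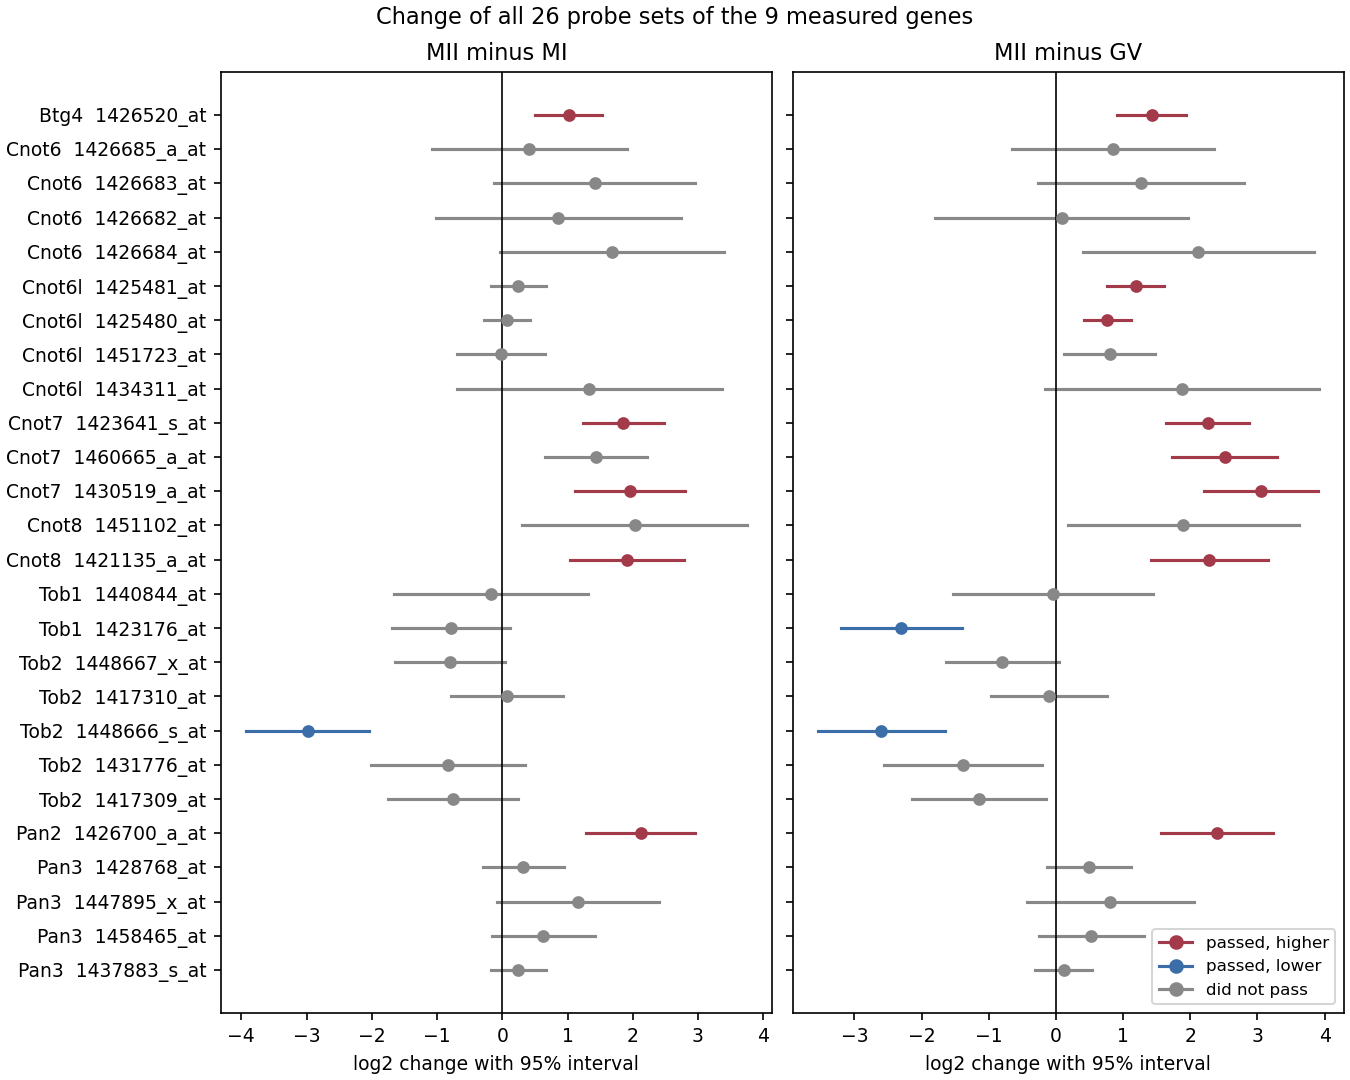
Log2 change with its 95% interval (not adjusted for the number of tests) from MI to MII (left) and from GV to MII (right) for the 26 probe sets, with the colour giving the result of the test. The red points from GV to MII are Btg4, Cnot6l, Cnot7, Cnot8 and Pan2, at 0.77 to 3.06, and the blue ones are Tob1 and Tob2, at -2.30 and -2.60.

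Whether a gene moved differently in the second step than in the first was tested as a contrast of its own. None of the 26 passed, against 0.211% of all probe sets, and 4 had an unadjusted p under 0.05, against 8.89%. These 4 were Cnot7 1423641_s_at (difference 1.45, interval 0.38 to 2.53, adjusted p = 0.345), Cnot8 1421135_a_at (1.54, interval 0.03 to 3.05, adjusted p = 0.549), Pan2 (1.85, interval 0.40 to 3.29, adjusted p = 0.379) and Tob2 1448666_s_at (-3.37, interval -5.01 to -1.73, adjusted p = 0.147). Their second step was thus larger in size or opposite in sign, but not beyond what the adjusted test requires.

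**Figure D4:**
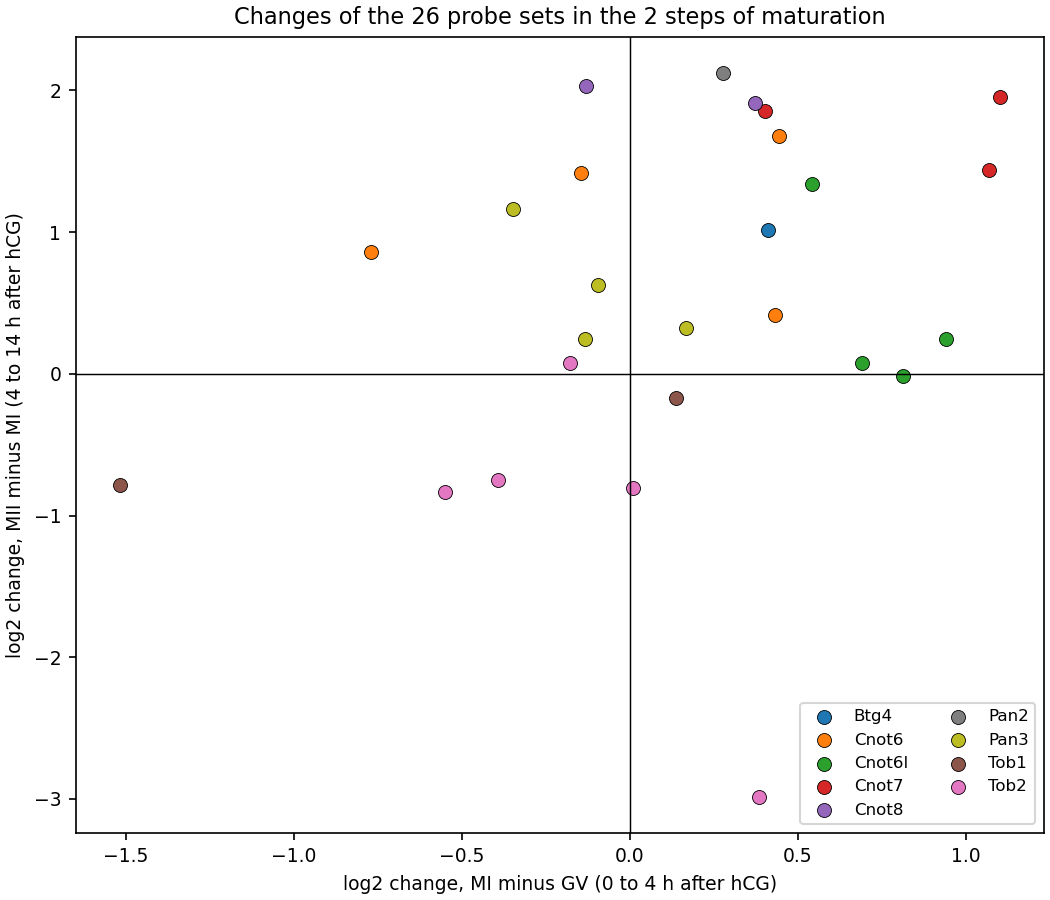
Each point is 1 of the 26 probe sets, with its log2 change from GV to MI on the horizontal axis and from MI to MII on the vertical axis, coloured by gene. Cnot7, Cnot8 and Pan2 lie between 1.44 and 2.12 on the vertical axis, 3 of the 4 Cnot6l probe sets lie near 0 on it at 0.69 to 0.94 on the horizontal axis, and Tob2 1448666_s_at lies at -2.98. The axes share the MI arrays.

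Paralogues were compared through the difference of their brightest probe sets within each array, which compares changes and not levels. From GV to MII the difference moved by 0.36 for Cnot7 minus Cnot8, by -0.34 for Cnot6 minus Cnot6l and by 0.76 for Tob1 minus Tob2. In each of these 3 pairs the arrays of both stages overlapped, and the exact two-sided permutation p was 1, 0.5 and 0.4. With 3 arrays against 3 no pair could reach a p below 0.1, so these values show neither a difference nor that the paralogues changed alike.

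Among the mRNAs of the wider pathway, Angel2, a relative of the CCR4-type nucleases, and the deadenylase-like Noct rose from GV to MII. No other CCR4-NOT subunit passed as higher. From GV to MI no gene of these lists passed. A gene was represented by its brightest probe set. It counts as measured also where this probe set was near background, as for Toe1 (means 17.0, 17.2 and 15.5 in GV, MI and MII). A missing call for such a gene does not show that it stayed the same. From GV to MII, 4.8% of all 18193 genes rose and 7.92% fell, and from MI to MII 2.06% rose and 5.9% fell. Of the 9 measured genes described above, 4 rose by this rule from GV to MII, none fell and 5 did not pass. With the mean of a gene's probe sets in place of the brightest, 5 rose (Cnot8 in addition) and 2 fell (Tob1 and Tob2).

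Of the 6 other CCR4-NOT subunits (Cnot2, Cnot3, Cnot4, Cnot9, Cnot10 and Cnot11), none rose, 1 fell and 5 did not pass in either comparison, with a median log2 change of -0.38 from GV to MII against -0.03 over all genes. The 1 that fell was Cnot10, which binds the amino-terminal part of Cnot1, from 481 ± 98.2 at GV and 439 ± 131 at MI to 23.6 ± 11.7 at MII (SD over 3 arrays; log2 change from GV to MII -3.68, SE 0.32, adjusted p = 0.00114). Its other probe sets had log2 changes of -0.10, -1.65 and -1.69, the first with a mean of 7.47 over the arrays, near background.

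Of the 8 measured genes among the other BTG proteins and other deadenylases or deadenylase-like proteins, 2 rose, none fell and 6 did not pass from GV to MII (median 0.95). From MI to MII 1 rose. Angel2, a relative of the CCR4-type nucleases, rose from 573 ± 289 in GV to 3533 ± 84.1 at MII (SD over 3 arrays; log2 change 2.70, SE 0.39, adjusted p = 0.00606), and 4 of its 5 other probe sets moved by 2.04 to 3.12, the other, near background with a mean of 3.23, by -0.15. Noct, the deadenylase-like protein Nocturnin, rose to 2787 ± 172 from 1015 ± 314 at GV (log2 change 1.48, SE 0.35, adjusted p = 0.04). Without GV 2, GV 3, MI 1, MII 1, MII 2 or MII 3 the call of Noct was lost (adjusted p up to 0.123) and 1 gene of the list rose from GV to MII. Without MI 2, MII 2 or MII 3 no gene of it rose from MI to MII.

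Of the 14 measured RNA-binding proteins and adaptors that bring deadenylases to mRNAs, 2 rose, 3 fell and 9 did not pass from GV to MII (median 0.26), and 3 fell from MI to MII. Celf1, which binds GU-rich elements, fell from 1122 ± 765 in GV to 103 ± 76.3 at MII (SD over 3 arrays; log2 change -3.23, adjusted p = 0.00968), with -0.18 to -0.71 at its other probe sets. Samd4b, a Smaug protein, fell from 210 ± 36.3 to 20.3 ± 13.01 (log2 change -2.70, adjusted p = 0.00474). Pum2, a Pumilio protein, rose from 267 ± 174 to 1358 ± 351 (log2 change 2.51, adjusted p = 0.0253), with 1.13, 0.15 and -0.11 at its other probe sets, the last near background with a mean of 2.62. It lost its call without GV 2, MII 1, MII 2 or MII 3 (adjusted p up to 0.084). The other rise was Ythdf3, from 620 ± 110 to 1866 ± 193 (log2 change 1.57, adjusted p = 0.00209), with 2.24 and 2.03 at its other probe sets. The remaining fall was Cpeb1, from 2320 ± 179 to 732 ± 109 (log2 change -1.65, adjusted p = 0.00201).

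Of the 23 measured genes of the steps after deadenylation (decapping, uridylation and decay), 3 rose, 2 fell and 18 did not pass from GV to MII (median -0.06), and 2 rose and 4 fell from MI to MII. Some that did not pass had little signal. Means in GV, MI and MII were 15.7, 3.8 and 6.9 for Edc3. For the uridylation genes Tut4 and Tut7 they were 15.4, 33.1 and 9.7, and 31.2, 18.2 and 24.5. The 3 that rose from GV to MII were Dcp1a, Ddx6 and Patl1. Dcp1a moved by 2.32 on the log2 scale (adjusted p = 0.00375), with 2.15 and 2.30 at its other probe sets. Ddx6 moved by 2.72 (adjusted p = 0.0226), with 0.88, -0.13 and -0.14 at its others. Patl1 moved by 1.41 (adjusted p = 0.0114), with -0.87 at its other. Without GV 2 or GV 3 the list had 2 rises. The largest changes were falls of Lsm proteins, which form the ring that binds the end of a shortened tail and, with other partners, a ring of the spliceosome. Lsm4 fell by 3.60 on the log2 scale and Lsm2 by 3.29 from GV to MII (adjusted p = 0.0144 and 0.0154), and Lsm6 by 3.06 from MI to MII (adjusted p = 0.0416). Their calls depended on single arrays. From GV to MII, Lsm4 lost its call without GV 3 (adjusted p = 0.0529) and Lsm2 without GV 2 or GV 3 (adjusted p up to 0.0566), and the list then had 3 calls without GV 2 and 2 without GV 3. From MI to MII, Lsm6 lost its call without GV 2, GV 3, MI 1, MI 2, MII 1, MII 2 or MII 3 (adjusted p up to 0.134), and the list had 3 calls without GV 2 or MII 1, 2 without GV 3, MI 1 or MI 2, 1 without MII 2 and 0 without MII 3.

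Of the 12 genes of poly(A) tail synthesis and binding, 1 rose, 4 fell and 7 did not pass from GV to MII (median -0.11), and 2 fell from MI to MII. Tent2, a cytoplasmic poly(A) polymerase, rose from 134 ± 42.8 in GV to 1261 ± 517 at MII (SD over 3 arrays; log2 change 3.07, SE 0.45, adjusted p = 0.0061), with 0.06 at its other probe set, whose mean of 9.21 over the arrays is near background. Pabpc1l, the poly(A)-binding protein of oocytes, had 4032 ± 491 at GV and fell to 426 ± 198 (log2 change -3.30, SE 0.36, adjusted p = 0.00218). Cpsf3, the endonuclease of cleavage and polyadenylation, fell by 2.32 from GV to MII (adjusted p = 0.0143), lost without GV 2 (adjusted p = 0.0521), and by 2.62 from MI to MII (adjusted p = 0.0135), lost without MI 2 (adjusted p = 0.0558). The number called was 3 from GV to MII without GV 1 or MII 2 and 2 without GV 2, and 1 from MI to MII without MI 2.

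**Figure D5:**
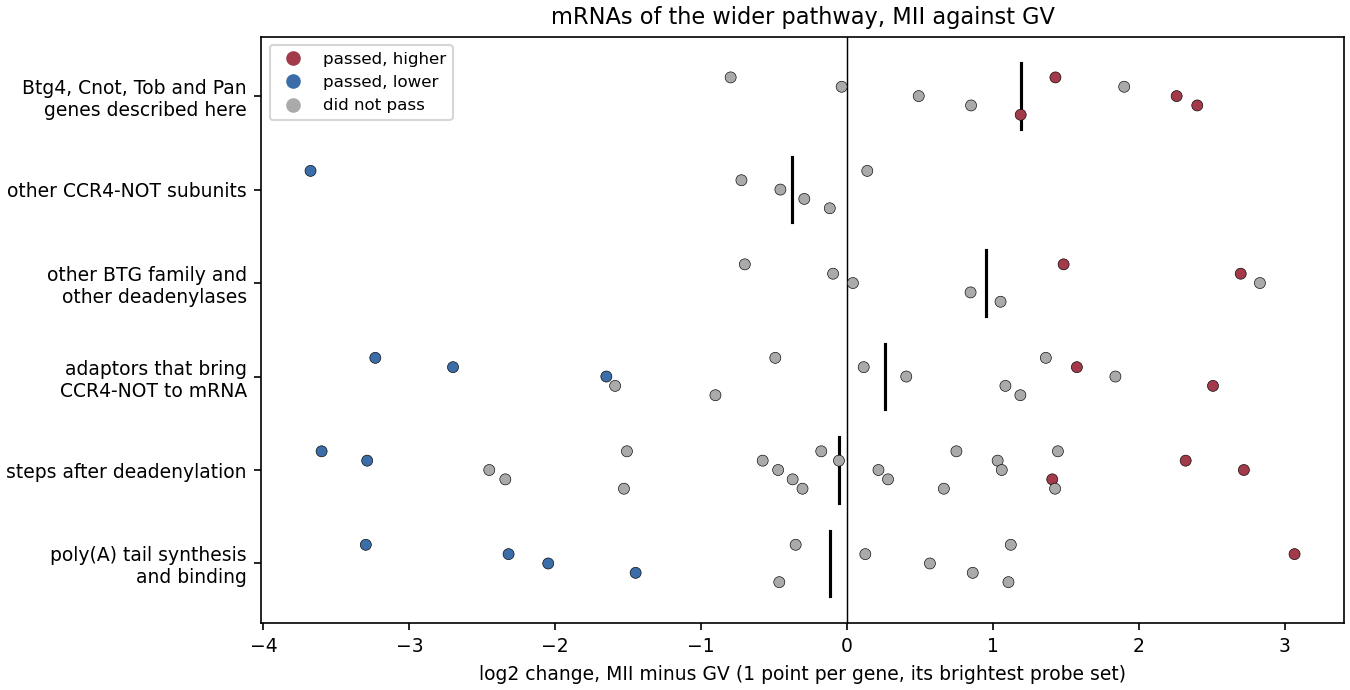
Log2 change from GV to MII of each gene's brightest probe set (1 point per gene, spread vertically for sight) in the 9 measured genes described here and in 5 lists of the wider pathway, with a black bar at each list's median and the colour giving the result of the test. The medians are 1.19, -0.38, 0.95, 0.26, -0.06 and -0.11 from top to bottom.

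Genes whose values over the 9 arrays ran most like those of 3 members were looked up among 9097 genes at or above the median signal, by Pearson's r on the log2 scale, as a description only. For Btg4 they were Pnma5 (r = 0.994; means 311, 458 and 1585 in GV, MI and MII), Tiparp (r = 0.994; 1547, 2183 and 4747) and Kdelr2 (r = 0.988; 654, 1095 and 3943). For Cnot7 they were Papss1 (r = 0.993), Wdr47 (r = 0.992) and Hnrnpk (r = 0.987), and for Cnot6l they were Cmpk1 (r = 0.975), Smco4 (r = 0.96) and Pdcd6 (r = 0.955). All of these rose from stage to stage in their means; the points share arrays and stages, so a high r follows from any steady rise.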

How the data were processed

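Polysome-bound mRNA of 9 oocyte samples was amplified, labelled with biotin and hybridised to 1-colour Affymetrix arrays, per the labels' protocols. The deposited values are a linear intensity for each probe set and array, and how they were summarised, background-corrected and scaled is "not given in the sources used here". Detection calls are not part of the deposited table, and 0 of its columns were left unused.

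After leaving out 64 controls, log2(intensity + 16) of all 45037 probe sets, with no filter, was fitted with 3 stage means over all 9 arrays (lmFit and eBayes, limma 3.58.1, R 4.3.3). Contrasts were two-sided, with Benjamini-Hochberg adjustment over all probe sets, and intervals are 95% intervals of the fit. Folds are 2 to the power of the log2 change and understate dim genes. Gene names come from the platform annotation: 34945 probe sets had 1 symbol, 932 several and 9160 none. The RefSeq table of GRCm38.p6 held 18032 of 18193 genes. Paralogues, and probe sets within a gene, were compared by exact permutation tests, the latter chosen after seeing the data. The procedure was tested on simulated data.

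Alternatives were pseudocounts 1 and 64, a signal filter, 3 scalings, 1 value per gene, another variance model, 2-stage fits, a replicate block and leaving out each array. A probe set that is not the brightest of its gene is not tested by itself in the fits with 1 value per gene. Named were the 10 listed genes, up to 3 genes per pathway list that passed, taken by size of change, and the 3 genes most like each of 3 members. The 3 rises after deadenylation, and Ythdf3 and Cpeb1 among the adaptors, were named in addition. The members and lists were chosen with earlier results of these data known.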

Additional observations from a re-analysis of the deposited data

How the results depend on the processing

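Of the 16 calls of the 26 probe sets in the 3 comparisons, none changed sign under any alternative. In all 9 fits without 1 array 11 were kept, and 8 in these and in every other setting that held the probe set. With pseudocount 1 the number called was 1 instead of 6 from MI to MII and 5 instead of 10 by the F test; the cause was not tested. With 1 probe set per gene it was 3 from MI to MII, 4 from GV to MII and 4 by the F test, and averaging a gene's probe sets gave 7 from GV to MII (5 higher, 2 lower) and 4 by the F test, where 9 genes are counted instead of 26 probe sets. Leaving out 1 array gave 2 to 7 calls from MI to MII, 9 to 12 from GV to MII, 5 to 9 by the F test, and 0 from GV to MI and for the difference of the steps. Scaling arrays to the same 95th percentile gave 7 and 11 calls in the second step and the whole span. Among the pathway lists, averaging a gene's probe sets moved the calls from GV to MII from 1 to 2 (CCR4-NOT subunits), 2 to 4 (deadenylases, also 4 with scaling to the same 95th percentile and 1 with pseudocount 1; from MI to MII 1 became 2 with that scaling, quantile normalization, the signal filter or the replicate block, by the block as 1 higher and 1 lower) and 5 to 3 (adaptors), and the 6 calls after deadenylation from MI to MII became 3 with pseudocount 64 and 2 with 2 stages alone.

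Replicate numbers are shared between stages, and whether a number marks a shared set was not tested. The r of deviations from the stage means was 0.00 to 0.20 over the 9 same-numbered pairs and -0.24 to 0.10 over the other pairs. Of the 9 arrays, 7 were closest to their own number. The main fit did not use the numbers. With the replicate block 5 probe sets were called from MI to MII and 9 from GV to MII, and 8 by the F test. Signal near background limits Cnot6 1426684_at and 2 of the Pan3 probe sets.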
